A study of Rattus norvegicus with 60 samples.

Results

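The frontal cortex of adult rats was compared with 4 other brain regions of the same animals, the striatum, nucleus accumbens, amygdala and hippocampus. The members were the 12 arrays whose titles name the frontal cortex, out of 60 Affymetrix rat arrays in all, 1 array per region from each of 12 rats. The congenic group held 6 rats (animals 1, 2, 3, 4, 9 and 10) of the NP.P strain, which carries part of chromosome 4 from the alcohol-preferring P rats in an otherwise NP genome (the labels do not say this, which is background knowledge of these strains). The other 6 rats (animals 5, 6, 7, 8, 11 and 12) belonged to the NP line itself, which was selected for not preferring alcohol. No treatment was given beyond daily handling, brains were dissected in the cold after decapitation, and each rat's RNA was labelled and hybridized on its own. The borders of the dissected regions are not given in the sources used here, and rats of both lines entered 1 fit with the animal as a block. In the frontal cortex all 12 arrays were used. Among the other regions 7 arrays had profiles that stood apart from their labelled region and were left out of the fit, namely accumbens NP 8 and congenic 9, amygdala congenic 3 and NP 6, and hippocampus congenic 3, NP 8 and NP 11. That left 12 striatum, 10 accumbens, 10 amygdala and 9 hippocampus arrays, 41 in all, and 53 arrays with the frontal cortex.

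The neocortex is a layered sheet in which glutamatergic pyramidal neurons project to other cortical areas from the upper layers and to subcortical targets from the deep layers. Local GABAergic interneurons, among them cells that make parvalbumin or vasoactive intestinal peptide, control the firing of the pyramidal cells. The striatum and accumbens consist mainly of GABAergic medium spiny neurons that carry dopamine receptors, the amygdala mixes cortex-like and striatum-like nuclei, and the hippocampus holds densely packed pyramidal and granule cells. Bulk tissue from each region therefore carries the RNA of many cell types at once.

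Values are the deposited log2 signals of probe sets, the array's units for a transcript, and a difference is always the frontal cortex minus the mean of the 4 other region means. A difference of 1 log2 unit is a 2-fold change. A gene was represented by the probe set with the highest mean signal, and 10373 genes passed the signal filter, whose limit of 7.68 was set as a percentile of the signal, since no background was measured. A gene is said to be higher or lower where its adjusted p in limma was under 0.05, and called where the difference was also at least 2-fold. Correlations of the 12 frontal cortex arrays with their region's median profile were at least 0.987. Their correlations with the profile that sets the frontal cortex apart from the other regions were lower on the arrays of congenic animals 2 (0.693), 1 (0.727) and 10 (0.741) than on the other 9. The 3′ minus 5′ signal of the GAPDH control probes, a measure of RNA degradation, lay between -0.10 and 0.15 on frontal cortex arrays.

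All 3 marker genes of the frontal cortex had their highest mean there. Lamp5, a membrane protein gene of cortical neurons, had log2 values of 12.97 to 13.65 with a median of 13.34 on the 12 frontal cortex arrays, against 10.82 to 12.68 with a median of 12.12 on the 41 other arrays. No array of another region reached the lowest frontal cortex array. The difference was 1.49 ± 0.04 (SE), or 2.80-fold (limma, adjusted p = 8.7e-32), and the order of the other regions was striatum (12.57 ± 0.08), accumbens (12.23 ± 0.13), amygdala (11.67 ± 0.16) and hippocampus (10.96 ± 0.11, SD). Cux2, a transcription factor of upper-layer neurons, lay between 9.80 and 10.25 with a median of 9.94 in the frontal cortex, against 7.70 to 9.66 with a median of 9.00 in the other regions, again without overlap. It was 2.20-fold higher (1.14 ± 0.06, limma adjusted p = 6.85e-21), although its other probe set gave 0.59. Fezf2, which directs the identity of deep-layer projection neurons, lay between 9.79 and 10.37 with a median of 10.09 in the frontal cortex, against 6.95 to 10.07 with a median of 9.29 elsewhere. Its arrays overlapped with those of the hippocampus, where the mean was 9.87 ± 0.11 and the difference 0.19, so the 2.24-fold difference (1.17 ± 0.07, limma adjusted p = 1.26e-18) came mainly from the accumbens (2.52) and amygdala (1.29). In bulk tissue, fewer cells of a type and less RNA per cell cannot be told apart.

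**Figure D1:**
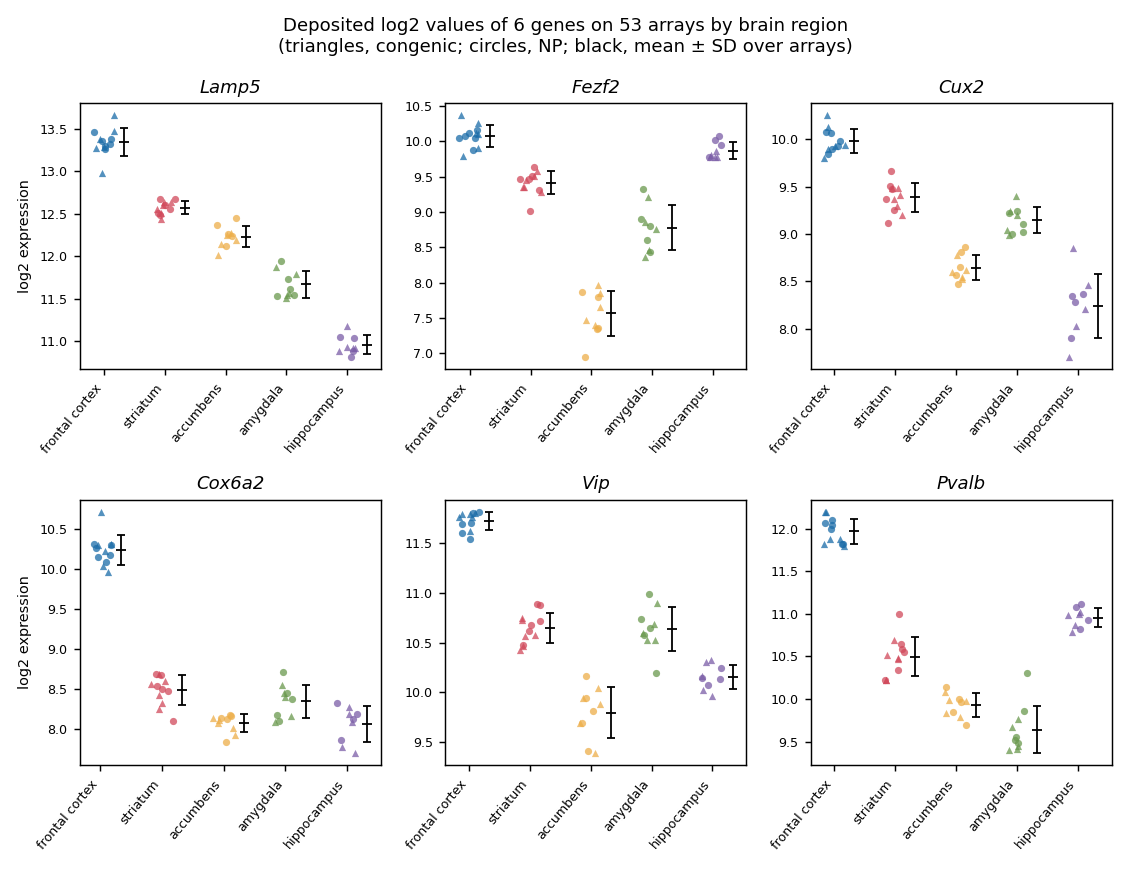
Deposited log2 values (y axis) of Lamp5, Fezf2, Cux2, Cox6a2, Vip and Pvalb on 53 arrays in 5 brain regions (x axis). Points are arrays, triangles for congenic and circles for NP rats, and black bars give the mean ± SD over the arrays of a region; the frontal cortex stands above every other array for each gene except Fezf2, where the hippocampus (9.87 ± 0.11) lies beside it (10.07 ± 0.16).

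The frontal cortex differed from the mean of the other regions at 2-fold or more in 233 of 18625 probe sets (1.25%), 127 higher and 106 lower. By gene these were 78 higher (0.752% of the genes tested) and 69 lower (0.665%), while 45.1% of all genes were higher and 28.3% lower by the adjusted p alone, with a median difference of 0.05 over all genes. In 61 of the 78 higher genes every frontal cortex array lay above every other array, which held for 3.01% of all genes tested. For 27 of the 69 lower genes every frontal cortex array lay below all others, against 0.617% of all genes. Called genes were picked by their difference on these same arrays, so these counts describe them and are not further support. The striatum was the next highest region for 52 of the 78 higher genes, the hippocampus for 14, and the accumbens and amygdala for 6 each. Among the 69 lower genes, the hippocampus had the lowest level of the other regions for 35 and the striatum for 21. With all 60 arrays the count of probe sets was 226, 121 higher and 105 lower. Low signal touches some of these folds: the mean of the other regions was under the filter limit for 5 of the higher genes, and the frontal cortex mean was under it for 21 of the lower genes, which passed the filter through the regions where they were high.

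The highest genes of the frontal cortex included several better known from other tissues. Cyp11b1, the steroid 11-beta-hydroxylase of adrenal corticosterone synthesis, had the largest difference among the genes called higher that have a single symbol. It lay between 8.92 and 9.80 with a median of 9.45 in the frontal cortex, against 5.80 to 8.99 with a median of 7.34 elsewhere, and 1 striatum array (8.99) reached into the frontal cortex range. Its difference was 2.28 ± 0.07, or 4.86-fold (limma, adjusted p = 7.4e-29), with the striatum closest (1.17). Its means in the accumbens, amygdala and hippocampus (6.95, 7.39 and 6.09) lay under the filter limit, so their order and the exact fold are uncertain. The rat genome holds near-identical copies of this gene, and the probes may not tell them apart. Cox6a2, the heart and muscle form of a cytochrome c oxidase subunit, lay between 9.96 and 10.71 with a median of 10.24 in the frontal cortex, against 7.70 to 8.71 with a median of 8.19 elsewhere. The groups did not overlap, the difference was 1.99 ± 0.06 or 3.98-fold (limma, adjusted p = 5.03e-30), and the other regions were alike, with differences of 1.75 in striatum, 1.91 in amygdala and 2.15 in both accumbens and hippocampus.

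Tnnc2, the troponin C of fast skeletal muscle, lay between 9.99 and 10.72 with a median of 10.39 in the frontal cortex, against 7.75 to 9.37 with a median of 8.45 elsewhere, without overlap (3.85-fold, limma adjusted p = 1.68e-26). Tcap and Trim54, further genes of the muscle sarcomere that were named after their values were seen, were also called. Tcap, or telethonin, averaged 9.03 ± 0.21 (SD, n = 12) in the frontal cortex and was higher by 1.07 ± 0.05 (limma, adjusted p = 6.21e-22). Trim54, a ubiquitin ligase of the sarcomere, was higher by 1.02 ± 0.07 (adjusted p = 1.01e-16) over the mean but lower than in the amygdala by 0.57. A further list of 23 skeletal muscle genes, also chosen after values were seen, does not hold Cox6a2, Tnnc2, Tcap or Trim54. Of its genes 22 are on the array and 7 passed the filter. None of the 7 differed 2-fold, with differences from -0.24 to 0.24. Since the genes called higher are not in it, the list cannot show how muscle genes as a group behaved.

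Synaptic and signalling genes were also among the 15 highest. Cbln2, a secreted cerebellin that organizes synapses, lay between 11.46 and 11.85 with a median of 11.69 in the frontal cortex, against 9.01 to 11.15 with a median of 9.70 elsewhere, without overlap. It was 3.66-fold higher (1.87 ± 0.05, limma adjusted p = 9.52e-31), with the striatum closest at 1.00. Plcb4, a phospholipase C that acts below Gq-coupled receptors, lay between 11.08 and 11.53 with a median of 11.24 in the frontal cortex, against 8.93 to 10.35 with a median of 9.71 elsewhere. These arrays also did not overlap, and the difference was 1.55 ± 0.04 or 2.93-fold (limma, adjusted p = 4.24e-30). Exph5, an effector of Rab27 in vesicle transport, was 3.42-fold higher (1.77 ± 0.05), and the J-domain co-chaperone Dnajc21 3.62-fold higher (1.86 ± 0.05), with all frontal cortex arrays above all others for both. The sperm channel component Catsperz (3.70-fold, 1.89 ± 0.05) and the olfactory receptor gene Olr59 (3.40-fold, 1.77 ± 0.04) also showed no overlap. Gene names come from an old platform annotation, and none of these 4 genes had another probe set past the signal filter.

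**Figure D2:**
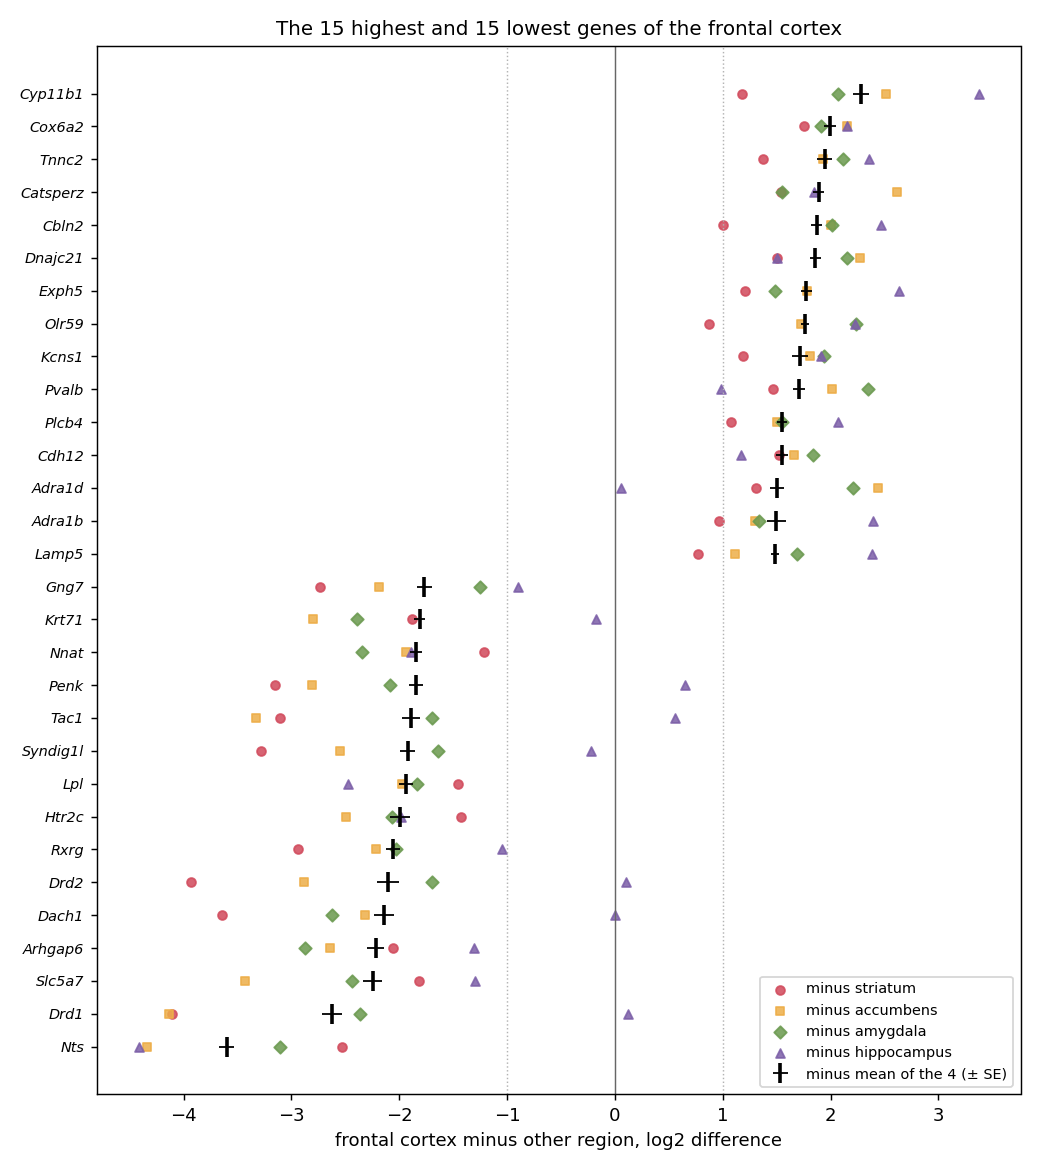
Log2 difference (x axis) of the frontal cortex from each other region (coloured symbols) and from the mean of the 4 (black, ± SE) for the 15 highest and 15 lowest called genes (y axis). Cyp11b1 leads at 2.28 and Nts lies lowest at -3.60; for Adra1d the hippocampus symbol lies at 0.05, and for Drd1, Drd2 and Dach1 the hippocampus symbols lie near 0 (0.12, 0.10 and 0.00).

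A mean over 4 regions can be carried by some of them, so genes were also asked to stand at least 2-fold above every other region. There were 23 such genes (0.222% of those tested) in 27 probe sets. Ordered by the smallest of their 4 differences they were led by Cox6a2 (1.75), Catsperz (1.54), Dnajc21 (1.5), Tnnc2 (1.38), Boc (1.25), Exph5 (1.21), Kcns1 (1.19), Cyp11b1 (1.17), Cdh12 (1.17) and Tcerg1l (1.10). Boc, a cell-surface co-receptor for Sonic hedgehog, lay between 10.18 and 10.83 with a median of 10.58 in the frontal cortex, against 8.56 to 9.46 with a median of 9.20 elsewhere. The groups did not overlap and the regions differed little among themselves, with differences from 1.25 in striatum to 1.72 in hippocampus (mean difference 1.44 ± 0.04, limma adjusted p = 4.24e-30). Cdh12, a cadherin of cell adhesion, lay between 9.32 and 9.88 with a median of 9.50 in the frontal cortex, against 7.25 to 8.69 with a median of 7.98 elsewhere. It too had no overlap (2.92-fold, limma adjusted p = 1.96e-26). The rest of the 23 were Zfhx4, Plcb4, Vip, Alb, Arhgap15, Efna5, Garnl3, Mlip, Plaat1, Gypc, LOC102553820, Cbln2 and Cpne9, with smallest differences of 1.09 down to 1.00. The count is tied to the striatum, the next highest region for most higher genes: 73 probe sets stood above every region when the striatum was not among them.

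**Figure D3:**
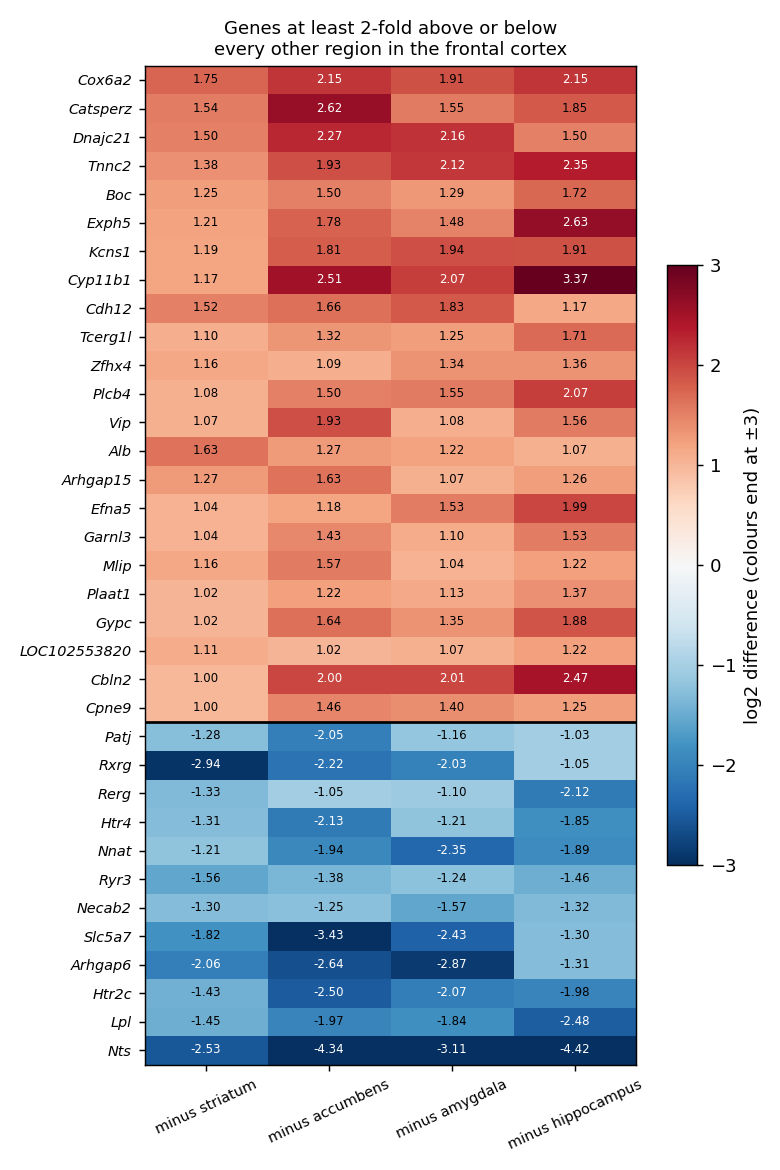
Log2 difference of the frontal cortex from each other region (columns) for the 23 genes at least 2-fold above (upper block) and the 12 at least 2-fold below (lower block) every other region, 1 gene per line of the map. Colours end at ±3; Cox6a2 is at 1.75 or more in every column, and Nts at -2.53 or below.

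The markers of cortical layers did not move as 1 group. Of 14 measured upper-layer genes (18 in the list), 8 were higher and 5 lower with a median difference of 0.19, against 45.1% and 28.3% of all genes. Lamp5, Cux2 and Stard8 (1.08 ± 0.04) were called, and Nectin3, an adhesion molecule, was higher by 0.67, though its other probe set differed by 0.046. Wfs1, an endoplasmic reticulum protein gene also abundant in the CA1 field of the hippocampus, was lower by 0.79, with a difference of -0.05 from the striatum and of -1.30 from the hippocampus. Of 21 measured deep-layer genes (24 in the list), 8 were higher (38.1%) and 9 lower (42.9%), with a median of 0.02. Fezf2 and Hs3st2, a heparan sulfate sulfotransferase (1.41 ± 0.07), were called higher. Bcl11b, a factor of deep-layer cortical neurons that is also made by medium spiny neurons, was called lower and lay between 10.30 and 10.79 with a median of 10.63 in the frontal cortex, against 11.30 to 12.44 with a median of 11.91 elsewhere. Every frontal cortex array was below every other array, and the difference was -1.31 ± 0.06 (limma, adjusted p = 3.82e-24).

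Of 23 measured general markers of telencephalic glutamatergic neurons (25 in the list), 15 were higher (65.2%, against 45.1% of all genes) and 6 lower (26.1%, against 28.3%) with a median of 0.31, and none was called higher on its brightest probe set. With all 60 arrays 13 of them were higher and 2 lower, and without the frontal cortex array of congenic animal 2 these counts were 16 and 4. The list was not highest in the frontal cortex. Its mean level, taken around the mean of the 5 regions, was 0.19 (0.04 to 0.24) at the median frontal cortex array. At the median hippocampus array it was 0.33 (0.27 to 0.45), without overlap, and at the median accumbens array -0.57. Mef2c, an activity-regulated transcription factor, was just short of the 2-fold limit at 1.00 ± 0.04 (limma, adjusted p = 1.2e-24) and past it on its other probe set (1.04), with 13.54 to 13.78 on frontal cortex arrays and 11.69 to 13.35 on the others. Camkk2, an upstream kinase of calcium signalling, was higher by 0.83 ± 0.04 and Neurod6, a transcription factor of pyramidal neurons, by 0.80 ± 0.07, but Neurod6 was lower than in the hippocampus by 1.05. Slc17a6, the vesicular glutamate transporter typical of subcortical neurons, was called lower (-1.24 ± 0.08), and its difference from the striatum was 0.07 and from the amygdala -2.33. The claustrum and lateral cortex list had 8 of 9 genes measured, none higher and 5 lower (62.5%, against 28.3% of all genes). Nnat, or neuronatin, the kappa opioid receptor gene Oprk1 (-1.55 ± 0.08) and the nuclear receptor gene Nr4a2 (-1.01 ± 0.08) were called lower. The frontal cortex values of Oprk1 (6.54 to 7.61) all lay under the filter limit and overlapped with the hippocampus (6.81 to 7.42). Nr4a2 in the frontal cortex (7.86 to 8.44) overlapped with the accumbens (8.02 to 8.91). The other probe set of Nr4a2 gave -0.95, which is short of 2-fold.

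Cortical transcripts were also present in the striatum arrays, at levels above the frontal cortex for some genes. Slc17a7, the vesicular glutamate transporter of cortical pyramidal neurons, lay between 10.50 and 12.40 with a median of 12.21 in the frontal cortex, against 12.71 to 13.46 with a median of 13.14 in the striatum. All 12 striatum arrays were above all 12 frontal cortex arrays, and the frontal cortex was lower than the striatum by 1.05 (limma, adjusted p = 1.04e-08). The lowest frontal cortex value of Slc17a7 was on the array of congenic animal 2, where Tbr1, a factor of deep-layer neurons, was also lowest at 6.80. Tbr1 averaged 8.57 ± 0.63 in the frontal cortex and 9.18 ± 0.20 in the striatum (SD, n = 12 each, difference -0.61, limma adjusted p = 4.88e-04). Ccn2 and Cplx3, both genes of the deepest cortical layer, had frontal cortex minus striatum differences of -0.60 (adjusted p = 2.86e-09) and -0.47 (adjusted p = 0.0326), and Nr4a2 of -1.68. Slc17a7, Tbr1, Ccn2 and Cplx3 were named after their values were seen. Over the 57 measured genes of the upper-layer, deep-layer and glutamatergic lists together, 28 were higher and 22 lower than in the striatum with a median of 0.07, while 54.6% of all genes were higher and 26% lower with a median of 0.12. The mean level of the deep-layer list, taken around the mean of the 5 regions, was 0.05 (-0.17 to 0.16) at the median frontal cortex array and 0.34 (0.27 to 0.42) at the median striatum array. Whether the striatum samples held cortical tissue was not tested.

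Interneuron genes did not move as 1 group, with Pvalb and Vip higher and Gad2 and Slc32a1 among the genes that were lower. Of 22 measured genes (33 in the list), 12 were higher (54.5%) and 6 lower (27.3%), with a median of 0.16, near the 45.1% and 28.3% of all genes. Pvalb, the calcium-binding protein of fast-spiking basket cells, lay between 11.80 and 12.20 with a median of 11.94 in the frontal cortex, against 9.40 to 11.11 with a median of 10.22 elsewhere. The groups did not overlap, the difference was 1.71 ± 0.06 or 3.26-fold (limma, adjusted p = 9.31e-28), and the hippocampus was closest (0.99). Vip, the peptide of interneurons that mainly inhibit other interneurons, lay between 11.54 and 11.80 with a median of 11.76 in the frontal cortex, against 9.39 to 10.98 with a median of 10.43 elsewhere. It stood at least 2-fold above every region, with differences of 1.07 in striatum, 1.08 in amygdala, 1.56 in hippocampus and 1.93 in accumbens (mean 1.41 ± 0.06, limma adjusted p = 6.93e-25). The cholecystokinin gene Cck (0.93 ± 0.06) and the fast potassium channel gene Kcnc2 (0.79 ± 0.04) were higher on every frontal cortex array than on any other. Slc32a1, the vesicular GABA transporter (-0.81 ± 0.06), and Gad2, which makes GABA (-0.73 ± 0.06), were lower, Slc32a1 by 1.28 against the striatum and by 1.33 against the accumbens while its difference from the hippocampus was 0.11. Calb2, or calretinin, was called lower (-1.10 ± 0.06), with the amygdala farthest (-1.88) and the striatum nearest (-0.42).

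The promoters of Vip and Pvalb, the interneuron genes called higher, are shown because both were higher on every frontal cortex array than on any other. They are RefSeq windows of 300 bases on the GRCr8 build, from 250 bases before the annotated start of the gene to 50 after it, read 5′ to 3′ on the gene's strand. Capitals mark the motifs found on either strand, and these were the TATA box TATAAA, the cyclic AMP response element core TGACG, the NeuroD-type E-box CAGATG and the LIM homeodomain core TAATTA, none of which overlaps another here. The Vip window lies at chr1:44470230-44470529 on the plus strand and holds TATAAA at bases 76, 86 and 203 and TGACG at base 154, counted from the window's 5′ end. The Pvalb window lies at chr7:111666240-111666539 on the minus strand and holds TGACG at base 10.
Vip: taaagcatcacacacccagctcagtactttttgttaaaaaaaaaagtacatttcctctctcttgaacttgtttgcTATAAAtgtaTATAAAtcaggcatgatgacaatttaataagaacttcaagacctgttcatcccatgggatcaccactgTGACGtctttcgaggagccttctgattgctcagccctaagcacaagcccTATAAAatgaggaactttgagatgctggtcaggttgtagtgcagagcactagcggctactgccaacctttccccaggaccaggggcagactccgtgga
Pvalb: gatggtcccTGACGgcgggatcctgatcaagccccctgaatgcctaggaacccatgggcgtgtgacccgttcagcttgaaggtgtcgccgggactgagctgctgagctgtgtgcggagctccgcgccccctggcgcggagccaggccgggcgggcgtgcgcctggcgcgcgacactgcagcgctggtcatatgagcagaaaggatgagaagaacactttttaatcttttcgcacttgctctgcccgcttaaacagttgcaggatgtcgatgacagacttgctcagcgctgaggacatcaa
Over the 62 of 78 higher genes with a promoter in the table, 11.3% held TATAAA and 19.4% TGACG, against 13.3% and 26.7% of the 45 promoters of lower genes. Among the 8656 promoters of genes tested the shares were 6.42% and 32.4%, and 14.3% and 22% among all 27457 RefSeq promoters. CAGATG was in 14.5% of the higher, 13.3% of the lower, 10.8% of the tested and 16.3% of all promoters, and TAATTA in 1.61% of the higher, 8.89% of the lower, 2.0% of the tested and 5.35% of all promoters. A match is a description of these letters and not a binding site.

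Potassium channel genes set the firing pattern of neurons, and of 33 measured genes (48 in the list) 21 were higher (63.6%, against 45.1% of all genes) and 9 lower (27.3%, against 28.3%), with a median of 0.37. Kcns1, a silent subunit that modifies Kv2 channels, lay between 8.94 and 10.47 with a median of 9.74 in the frontal cortex, against 7.51 to 8.72 with a median of 7.83 elsewhere. Its frontal cortex arrays spread more than those of the other regions (SD 0.44 in the frontal cortex, against 0.11 to 0.15 in the others) but did not overlap with them, and the difference was 1.71 ± 0.07 or 3.28-fold (limma, adjusted p = 1.2e-23). Kcnv1, another silent subunit, lay between 11.71 and 11.96 with a median of 11.85 in the frontal cortex, against 10.12 to 11.49 with a median of 10.76 elsewhere, without overlap (2.15-fold, limma adjusted p = 3.41e-23). The Kv1 gene Kcna2 was higher by 0.72 and the Kv10 gene Kcnh1 by 0.68, while another probe set of Kcna2 gave -0.19. Kcna5, a Kv1 subunit, was called lower (-1.07 ± 0.05), with the accumbens farthest (-1.99). Its means in the frontal cortex (6.99) and hippocampus (6.77) both lay under the filter limit, and their order is not known. Of 23 sodium, calcium and HCN channel genes (27 in the list), 9 were higher (39.1%, against 45.1% of all genes) and 12 lower (52.2%, against 28.3%), with a median of -0.09. Scn1a, the sodium channel of fast-spiking interneurons, lay between 12.29 and 12.86 with a median of 12.45 in the frontal cortex, against 11.06 to 11.80 with a median of 11.39 elsewhere, and was called (1.14 ± 0.04, limma adjusted p = 2.55e-25) with no overlap. The T-type calcium channel gene Cacna1h was lowest of this list at -0.66.

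Serotonin receptor genes went in opposite directions. Htr2a, the receptor at which hallucinogens act, lay between 9.60 and 10.04 with a median of 9.87 in the frontal cortex, against 7.44 to 9.44 with a median of 8.83 elsewhere. All frontal cortex arrays were above all others, and the difference was 1.22 ± 0.06 or 2.34-fold (limma, adjusted p = 3.55e-22). Htr2c, a related Gq-coupled receptor, lay between 9.96 and 10.96 with a median of 10.31 in the frontal cortex, against 11.13 to 13.07 with a median of 12.40 elsewhere. Here every frontal cortex array was below every other, and the difference was -1.99 ± 0.09, or 3.98-fold lower (limma, adjusted p = 2.96e-23). Htr4, which couples to cyclic AMP, lay between 6.66 and 7.21 with a median of 6.85 in the frontal cortex, all under the filter limit, against 7.57 to 9.38 with a median of 8.44 elsewhere, again with no overlap (3.08-fold lower, -1.62 ± 0.06, limma adjusted p = 7.48e-26). The other probe set of Htr4 gave -0.48, which is short of 2-fold. Htr1d (-0.57) and Htr5a (-0.15) were lower without reaching 2-fold, and Htr7 did not pass the test. In all, 1 of 6 measured serotonin receptor genes (13 in the list) was higher (16.7%, against 45.1% of all genes) and 4 were lower (66.7%, against 28.3%).

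Among 14 measured adrenergic, dopamine and cholinergic receptor genes (22 in the list), 4 were higher (28.6%) and 9 lower (64.3%), with a median of -0.18, against 45.1% and 28.3% of all genes. Adra1d, an alpha-1 adrenergic receptor, lay between 10.70 and 11.17 with a median of 10.87 in the frontal cortex, against 8.07 to 11.03 with a median of 9.18 elsewhere. The hippocampus (10.83 ± 0.16) overlapped with the frontal cortex (10.90 ± 0.16, SD) and differed from it by 0.05, while the other regions gave the mean difference of 1.5 ± 0.07 (limma, adjusted p = 2.01e-23). Adra1b, the alpha-1B receptor, had the same mean difference (1.5 ± 0.09, limma adjusted p = 8.21e-19) with the hippocampus farthest (2.39, where the SD was 0.58) and no overlap, from 9.57 to 10.34 in the frontal cortex and from 7.28 to 9.42 elsewhere. The muscarinic receptor gene Chrm3 was higher by 0.54 and the nicotinic subunit gene Chrna4 by 0.34. Drd1 and Drd2, the main dopamine receptors, and the alpha-2C receptor gene Adra2c (-0.81) were lower.

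**Figure D4:**
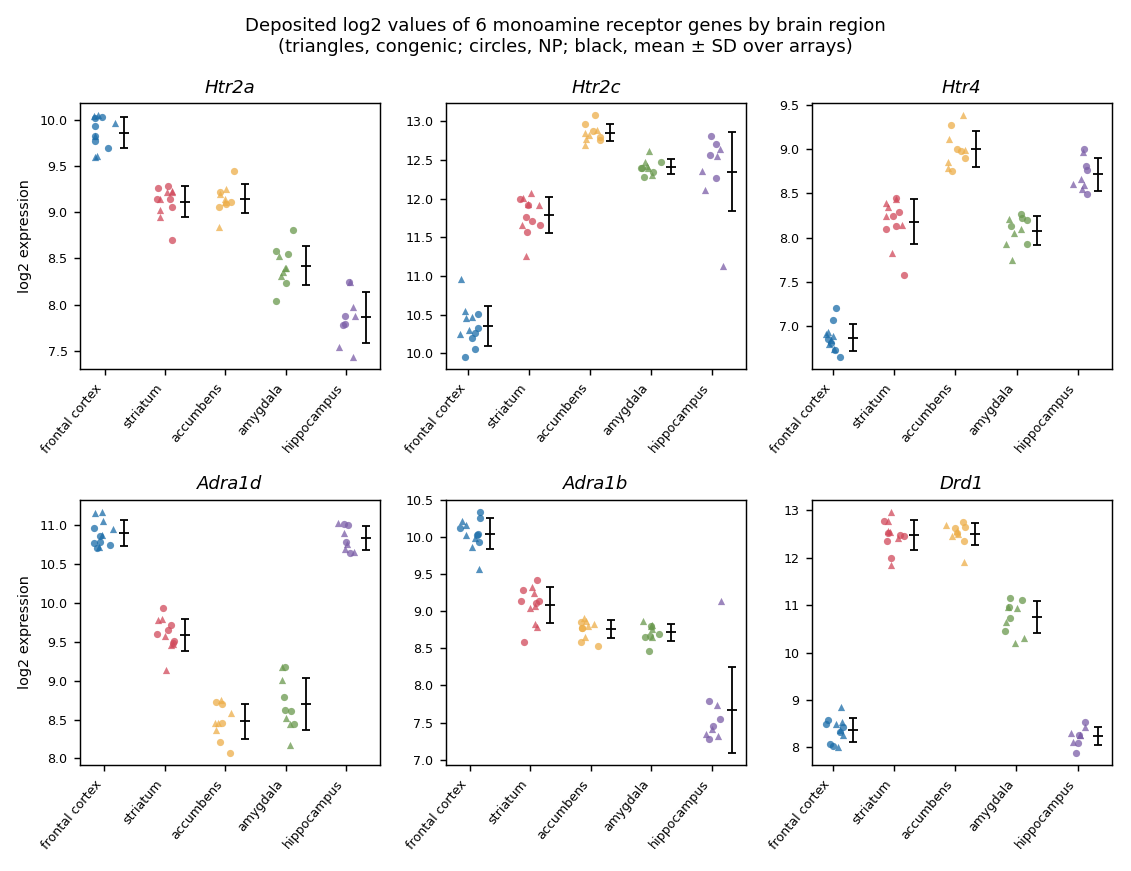
Deposited log2 values (y axis) of the receptor genes Htr2a, Htr2c, Htr4, Adra1d, Adra1b and Drd1 by region (x axis), with points for arrays (triangles congenic, circles NP) and black bars for the mean ± SD. Htr2a and Adra1b stand highest and Htr2c and Htr4 lowest in the frontal cortex without overlap, while the means of Adra1d (10.90 in frontal cortex, 10.83 in hippocampus) and Drd1 (8.37 in frontal cortex, 8.24 in hippocampus) lie close together.

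Among glutamate receptors, none of 16 measured ionotropic subunit and accessory genes (21 in the list) was called. Of the 16, 5 were higher (31.2%, against 45.1% of all genes) and 7 lower (43.8%, against 28.3%). The ends of the range were Grin2a at 0.48, where its other probe set gave -0.048, and Gria1 at -0.57. Grm2, a presynaptic receptor that lowers glutamate release, was higher by 0.82 ± 0.07 (limma, adjusted p = 1.18e-13), and its difference from the hippocampus was 0.10. The scaffold gene Homer1 was higher by 0.75 ± 0.04 on its brightest probe set, while its 4 other probe sets gave 0.59 to 1.78 and 2 of them passed the 2-fold limit. Homer3 was lower by 0.73 and Grm5 by 0.49. In all, 6 of 11 genes of metabotropic signalling (15 in the list) were higher (54.5%, against 45.1% of all genes) and 4 lower (36.4%, against 28.3%). Their mean level around the mean of the 5 regions also overlapped with the striatum. It was 0.19 (0.09 to 0.25) at the median frontal cortex array and 0.19 (0.14 to 0.24) at the median striatum array. Immediate early genes, which respond to neuronal activity within minutes, were higher for 15 of 22 measured genes (28 in the list) and lower for 3, with a median of 0.34. These are 68.2% and 13.6%, against 45.1% and 28.3% of all genes. The mean level of this list, taken around the mean of the 5 regions, overlapped between frontal cortex and striatum arrays. It was 0.28 (-0.02 to 0.40) at the median frontal cortex array and 0.23 (-0.19 to 0.37) at the median striatum array. Ier5 was the one called, with 11.25 to 11.77 and a median of 11.57 in the frontal cortex, against 9.86 to 11.19 and a median of 10.38 elsewhere (1.14 ± 0.04, limma adjusted p = 5.28e-28). The prostaglandin synthase gene Ptgs2 was higher by 0.85 ± 0.07 and Egr1 by 0.63 ± 0.04, but Egr1 differed from the striatum by -0.09. Of 8 measured GABA-A receptor subunit genes (15 in the list), 4 were higher (50%, against 45.1% of all genes), led by Gabrb2 (0.51), and 3 lower (37.5%, against 28.3%), led by Gabra2 (-0.42).

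Transcripts of striatal medium spiny neurons gave more called lower genes than any other list. Of 28 measured genes of these neurons (34 in the list), 26 were lower (92.9%, against 28.3% of all genes) and 1 higher (3.57%, against 45.1%). Of the 28 genes 15 were called lower, against 0.665% of all genes, and the median was -1.06. Against the striatum and the accumbens all 28 were lower (medians -1.97 and -1.69), against the amygdala 23 were lower and 2 higher (-0.57), and against the hippocampus 7 were lower and 11 higher (0.13). Drd1, the receptor of the direct-pathway neurons, lay between 8.01 and 8.84 with a median of 8.40 in the frontal cortex, against 7.88 to 12.97 with a median of 11.91 elsewhere. Only the hippocampus overlapped with the frontal cortex, and the differences were -4.11 in striatum, -4.14 in accumbens, -2.36 in amygdala and 0.12 in hippocampus (mean -2.62 ± 0.09, limma adjusted p = 1.07e-26). Drd2, the receptor of the indirect-pathway neurons, was lower by 2.10 ± 0.10 over the mean (limma, adjusted p = 4.73e-22) with differences of -3.93 in striatum, -2.89 in accumbens, -1.70 in amygdala and 0.10 in hippocampus. Its frontal cortex (7.53) and hippocampus (7.40) means lay under the filter limit, so the order of these 2 regions is not known. The peptide genes Tac1, for substance P (-1.89 ± 0.09), and Penk, for enkephalins (-1.85 ± 0.06), were higher in the frontal cortex than in the hippocampus by 0.56 and 0.65. Rxrg, a retinoid receptor (-2.06 ± 0.07), was the gene of this list that was lower than in every region by at least 2-fold, with the hippocampus nearest at -1.05. Scn4b, a sodium channel subunit gene, was the member higher over the mean (0.24), and with all 60 arrays it did not pass the test (0.20, limma adjusted p = 0.413). The list had 23 lower and 0 higher with all 60 arrays, and 26 lower and 0 higher both without the frontal cortex array of congenic animal 2 and without those of congenic animals 1, 2 and 10.

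**Figure D5:**
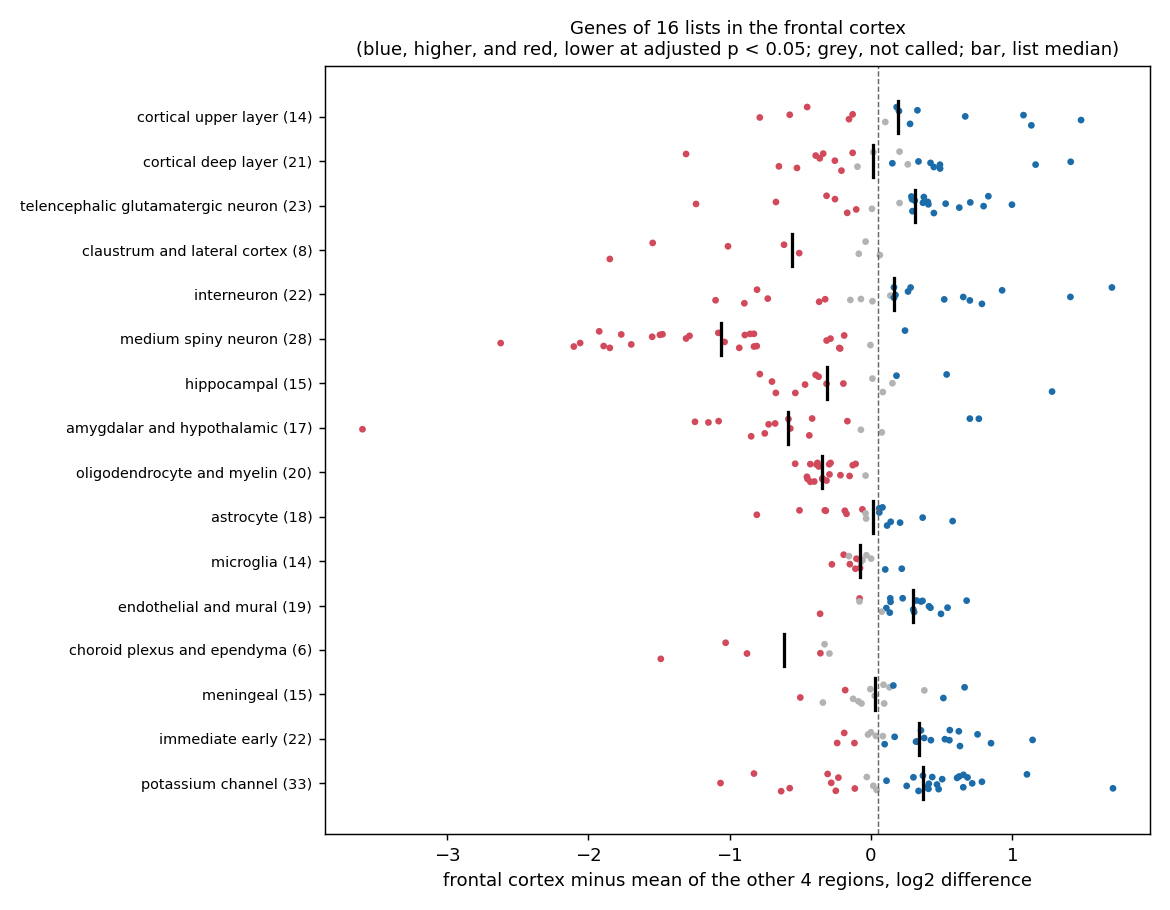
Log2 difference of the frontal cortex from the mean of the 4 other regions (x axis) for the genes of 16 lists (y axis, number of genes measured in brackets). Points are genes, blue higher and red lower at an adjusted p under 0.05 and grey neither; bars are list medians and the dashed line is the median of all genes (0.05). The medium spiny neuron list has its median at -1.06 and the potassium channel list at 0.37.

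In 12 genes (0.116% of those tested, 18 probe sets) the frontal cortex was at least 2-fold below every other region. Nts, the neurotensin gene, lay between 5.96 and 6.68 with a median of 6.14 in the frontal cortex, against 8.14 to 10.92 with a median of 9.58 elsewhere. The groups did not overlap, the differences ran from -2.53 in striatum to -4.42 in hippocampus, and the mean was 12.1-fold lower (-3.60 ± 0.07, limma adjusted p = 6.58e-36). Slc5a7, the choline transporter of cholinergic neurons, lay between 6.17 and 7.23 with a median of 6.85 in the frontal cortex, against 7.88 to 10.46 with a median of 8.86 elsewhere, without overlap (-2.25 ± 0.09, limma adjusted p = 4.21e-25). For both genes the frontal cortex values lay under the filter limit, so they are low signals. Lpl, or lipoprotein lipase, lay between 7.43 and 8.34 with a median of 7.87 in the frontal cortex, against 8.87 to 10.59 with a median of 9.75 elsewhere. It was 3.83-fold lower with the hippocampus farthest (-2.48, mean -1.94 ± 0.07, limma adjusted p = 4.77e-27), again without overlap.

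Nnat, a membrane protein gene of developing and adult neurons, lay between 10.77 and 11.71 with a median of 11.10 in the frontal cortex, against 12.10 to 13.65 with a median of 13.03 elsewhere. No arrays overlapped, and the difference was -1.85 ± 0.05 (limma, adjusted p = 2.05e-29). Necab2, a calcium-binding protein gene, was lower by nearly the same amount against each region (-1.25 to -1.57, mean -1.36 ± 0.04), though its other probe set gave -0.62 and would not be called, as was the ryanodine receptor gene Ryr3 (-1.24 to -1.56, mean -1.41 ± 0.06). Arhgap6 (-2.22 ± 0.08), the Ras-like gene Rerg (-1.40 ± 0.05), Patj (-1.38 ± 0.05), Rxrg, Htr2c and Htr4 made up the rest. When the hippocampus was not among the regions compared, 48 probe sets stood below every other region, against 18 with it. Dach1, a transcription factor gene, is of that kind, with a mean difference of -2.15 ± 0.09 and a hippocampus difference of 0.00 where both means lay under the filter limit, and so is the keratin gene Krt71 (-1.81 ± 0.05 and -0.18).

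Genes that mark the amygdala and neighbouring hypothalamus were mostly lower, 13 of 17 measured (30 in the list) with 2 higher and a median of -0.58. These are 76.5% lower and 11.8% higher, against 28.3% and 45.1% of all genes. After Nts the lowest were Nr2f2, a nuclear receptor of caudal and limbic territories (-1.25 ± 0.08, with -2.82 against the amygdala, and -0.71 on its other probe set, which is short of 2-fold), Hap1, or huntingtin-associated protein (-1.15 ± 0.04), and Pmch, the melanin-concentrating hormone gene of the hypothalamus (-1.08 ± 0.32). Pmch rested on the amygdala arrays, whose SD was 2.38. Of 15 measured hippocampal genes (24 in the list), 9 were lower (60%, against 28.3% of all genes) and 3 higher (20%, against 45.1%), with a median of -0.31. Prox1, a factor of dentate granule cells, was lower by 0.67, with -2.41 against the hippocampus and between -0.13 and -0.04 against the other regions. Trpc6, a cation channel of the TRP family on the same list, was instead called higher (1.28 ± 0.05) with a hippocampus difference of 0.04, and its mean over the other regions (7.62) lay under the filter limit. Among forebrain patterning factors, 11 of 28 measured genes (43 in the list) were higher (39.3%, against 45.1% of all genes) and 12 lower (42.9%, against 28.3%), and the called ones were Pbx3 (-1.58 ± 0.05), Bcl11b and Nr2f2. Etv5 was the highest of this list at 0.74, with a striatum difference of 0.00.

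Axon guidance and adhesion genes, which set the wiring of a region, went both ways, with 17 of 42 measured genes (57 in the list) higher (40.5%, against 45.1% of all genes) and 18 lower (42.9%, against 28.3%). Efna5, an ephrin that repels axons through Eph receptors, lay between 9.84 and 10.56 with a median of 10.22 in the frontal cortex, against 7.77 to 9.29 with a median of 8.83 elsewhere. It did not overlap with any region and was at least 2-fold above each (mean 1.44 ± 0.06, limma adjusted p = 1.08e-24). Ephb6, an Eph receptor without kinase activity, was higher by 1.35 ± 0.05 but by only 0.38 against the striatum. Nrp2, a semaphorin receptor, lay between 8.10 and 8.77 with a median of 8.41 in the frontal cortex, against 8.60 to 10.73 with a median of 10.14 elsewhere, the overlap being with striatum arrays (-0.52), and was 3.01-fold lower (-1.59 ± 0.06, limma adjusted p = 1.54e-26). Efnb3, an ephrin of the midline, was lower on every array (-1.25 ± 0.05).

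The shares of non-neuronal lists stand against 45.1% of all genes higher and 28.3% lower. Oligodendrocyte and myelin genes were lower for 19 of 20 measured genes (95%, 26 in the list) and higher for none, with a median of -0.34 and none at 2-fold. Their mean level around the mean of the 5 regions overlapped between frontal cortex and amygdala arrays. It was -0.27 (-0.40 to 0.05) at the median frontal cortex array and -0.19 (-0.44 to 0.44) at the median amygdala array. The medians were 0.18 in the striatum and 0.21 in the hippocampus. Sox10, the lineage's transcription factor, was lowest (-0.54 ± 0.05), and Mag, a myelin adhesion protein gene, differed by -0.92 from the striatum and by 0.01 from the amygdala. Endothelial and mural genes went the other way, 15 of 19 (23 in the list) higher (78.9%) and 2 lower (10.5%) with a median of 0.30. They were led by the pericyte channel subunit gene Abcc9 (0.68 ± 0.04) and Vwf, or von Willebrand factor (0.54 ± 0.06). Among astrocyte genes 8 of 18 (23 in the list) were higher, which at 44.4% is near the share of all genes (45.1%), and 7 were lower (38.9%, against 28.3%), from Gjb6, a connexin gene (0.58 ± 0.05), to Gfap, the astrocyte filament gene (-0.81 ± 0.05). Microglial genes were lower for 6 of 14 (42.9%, 18 in the list) and higher for 2 (14.3%), all within 0.28 of 0. Meningeal genes (15 of 15 measured) had 3 higher (20%) and 2 lower (13.3%), but their mean level, taken around the mean of the 5 regions, ranged from -1.10 to 0.85 over the frontal cortex arrays. The meningeal counts were 1 higher and 0 lower with all 60 arrays, and 5 higher and 1 lower without the frontal cortex arrays of congenic animals 1, 2 and 10. With all 60 arrays the myelin list had 18 lower genes and the endothelial and mural list 14 higher genes, and without those 3 frontal cortex arrays the counts were 19 and 15. Of 3 measured blood genes (9 in the list), 1 was lower (33.3%), and of 13 heat shock and stress genes (17 in the list), 3 were higher (23.1%) and 5 lower (38.5%).

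Choroid plexus genes were lower for 4 of 6 measured genes (66.7%, against 28.3% of all genes, 16 in the list). Ttr, or transthyretin, the main product of this tissue, was uneven between frontal cortex arrays, at 14.68 in congenic animal 2, 13.9 in NP animal 5 and 9.78 in congenic animal 10, and between 7.87 and 8.38 on the other 9. Folr1, a folate receptor gene of the same tissue, was also highest on the arrays of congenic animal 2 (9.36) and NP animal 5 (8.32). The Ttr difference of -1.49 ± 0.55 (limma, adjusted p = 0.0143) therefore rests on unequal groups, with 14.74 ± 0.50 in the hippocampus and a range of 7.68 to 15.04 over all other arrays. With all 60 arrays the Ttr difference was -1.41 (limma, adjusted p = 0.0514). Choroid plexus genes were lower for 6 of 6 without the frontal cortex array of congenic animal 2 and for 3 with all 60 arrays. The part of choroid plexus tissue in the other results of congenic animal 2 was not tested, and without that frontal cortex array 236 probe sets were called, 127 higher and 109 lower.

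No regional difference was found to depend on the line. Whether the frontal cortex difference in congenic rats departed from that in NP rats was tested with an interaction term. In limma 0 of 18625 probe sets passed, while 1353 had an unadjusted p under 0.05. That number was 289 without the frontal cortex arrays of congenic animals 1, 2 and 10, again with 0 passing. The smallest p-values belonged to Gsto2, a glutathione transferase (congenic minus NP 0.30 ± 0.07), Qrsl1, a mitochondrial amidotransferase subunit (0.24 ± 0.06), and Armc5 (0.32 ± 0.08), each with an adjusted p of 0.631. For Lamp5 the difference was 1.5 in congenic and 1.47 in NP rats, for Cox6a2 2.04 in congenic and 1.95 in NP rats, for Nts -3.51 in congenic and -3.69 in NP rats, and for Htr2c -1.81 in congenic and -2.19 in NP rats.

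The genes whose 5 region means followed Lamp5 most closely were Tmod1, an actin-capping tropomodulin (Pearson's r = 0.996), Syne1, a nuclear envelope protein gene (0.996), and Opn3, a light-sensitive opsin gene (0.993). These r values are over 5 region means that share arrays and animals, and they describe only the order and spacing of the regions. Opn3 was called (1.12 ± 0.05), Tmod1 was higher by 0.69 ± 0.03 with no overlap, and Syne1 by 0.35 ± 0.03. Some of the largest differences were on probe sets without a single gene symbol in the table used. The highest of these were 1390838_at (2.33 ± 0.10) and 1372481_at (1.94 ± 0.05), and the lowest 1392110_at (-3.41 ± 0.11) and 1381846_s_at (-1.78 ± 0.10). On the probe set 1392110_at the frontal cortex lay between 5.53 and 6.02 with a median of 5.69, against 6.87 to 10.87 with a median of 9.47 elsewhere, without overlap.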

How the data were processed

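RNA of 5 brain regions from 12 rats had been measured on 60 arrays. The deposited values are log2 signals of 31099 probe sets; the authors' background correction, normalization and summary method are not given in the sources used here. Of these probe sets, 57 array controls were dropped. Gene symbols came from GEO's platform annotation (20826 probe sets with 1 symbol, 436 with several, 9780 not listed), of which 20758 were found in RefSeq's GRCr8 gene list, used for chromosomes and promoters. The arrays' own build was not given.

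Probe sets with a mean at or above the 40th percentile (7.68) over the 53 arrays were kept (18625, with 14027 naming a single gene and 10373 different genes among them). Differences, folds and p-values were computed here from the deposited log2 values in R 4.3.3 with limma 3.58.1 (lmFit, eBayes), with 1 coefficient per region and the animal as a fixed block (37 residual degrees of freedom). The 2-sided p-values were adjusted by Benjamini-Hochberg over all probe sets kept. A call needed an adjusted p under 0.05 and a 2-fold difference. For every region at once, the largest of 4 p-values was adjusted in the same way and the smallest difference had to reach 1 log2 unit. Where a gene had several probe sets, that with the highest mean was used. All arrays fitted had measured values, and none was imputed. The samples of a group are separate rats, and the number of rats limits the precision; arrays give no read depth.

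The gene lists, the rule for named genes and the arrays left out were chosen with earlier results of these data known. Named were the 3 markers, the 15 highest and 15 lowest genes, the 10 leading genes above and below every region, up to 4 genes per direction and list, the 3 smallest interaction p-values and the 3 genes most like Lamp5. Genes said to be named after their values were seen fall outside the rule.

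The labels' animal numbers tie the regions of each rat to one another, which is the pairing the block uses. After subtracting region and line means, the average correlation was 0.0706 within rats (94 array pairs) and -0.00591 between rats and regions (1026 array pairs), with a consensus correlation of 0.0531 in limma. On simulated data with 200 of 18625 probe sets changed, the fit recovered 100% of those changed by 1.5 log2 units and 99% of those changed by 0.5. The simulated noise was independent and normal, without animal effects and without differences among the other regions. It therefore checks only that the fit runs as meant, and not its error rate on the real arrays. Alternatives covered the arrays, normalization, filter, prior, block, threshold, lines, animals, regions and probe sets. Figures and tables used data.table (version 1.17.8), Python 3.11.15, pandas 2.3.3, numpy 2.4.6 and matplotlib 3.10.9.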

Additional observations from a re-analysis of the deposited data

Results flagged for a closer look

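Within the frontal cortex, the 6 congenic and the 6 NP arrays were searched for single arrays far from the rest, that is, where the gap to the nearest array divided by the whole range was above Dixon's critical value. Of 376 groups (188 named genes in 2 lines), 37 had such an array, in 32 genes, and chance gives about 1 in 20. The array of congenic animal 2 was the one in 13 groups, that of congenic animal 10 in 5, that of NP animal 12 in 4, and congenic 1 and NP 6 had 3 each. Why these arrays stand apart was not tested.

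On the array of congenic animal 2, choroid plexus genes were high, with Ttr at 14.675 (8.029 to 9.778 on the other 5 congenic arrays) and Folr1 at 9.36. Also high were Dach1 (7.23), Kcnip2 (11.788), Sox10 (10.074) and Acsbg1 (12.14). Low on that array were the cortical genes Ldb2 (9.619), Crym (11.269) and Lmo4 (13.636), and Ociad2 (10.941), Cx3cr1 (8.199), Gria1 (9.335) and Cacng8 (7.578). Cortical genes did not all go this way there. Lamp5 (13.655) and Cux2 (10.25) had their highest frontal cortex values on that array and Fezf2 its lowest (9.792), though none of these was flagged. On the array of congenic animal 10, Cyp11b1 was low at 8.92 (9.411 to 9.457 on the other 5) and Tcerg1l at 10.074, while Cbln2 (11.853), Ryr3 (9.297) and Camkk2 (9.549) were high. Congenic animal 1 was low for the meningeal genes Ogn (9.042, against 10.979 to 12.049 on the other 5) and Slc22a6 (8.259) and for Vip (11.614). Congenic animal 9 was high for Gabrd (11.464).

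Among NP rats, animal 5 was high for Ttr at 13.896 (7.866 to 8.373 on the other 5 NP arrays) and for Folr1 at 8.319. Animal 12 was high for Nnat (11.705) and Rbp4 (10.157) and low for Gad2 (8.779) and Ier5 (11.249). Animal 6 was high for Cnih2 (12.121) and low for Gfap (12.423) and Cacna1h (8.301). Animal 8 was low for Nectin3 (8.816) and Crym (11.566), animal 7 for Cacng8 (8.005) and Syne1 (11.992), and animal 11 for Sox10 (9.15) and Hspb1 (8.656).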

How the results depend on the processing

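The count of 233 probe sets at 2-fold or more was 226 with all 60 arrays, 215 after quantile normalization and 239 after centring each array on its median, and 229 to 241 when each animal was left out in turn. It was 942 (586 higher, 356 lower) at a 1.5-fold limit and 527 (341 higher, 186 lower) when limma's treat tested against a 1.5-fold difference, which raised the share of higher calls from 54.5% to 62.2% and 64.7%. The 27 probe sets above every region became 17 after quantile normalization, 15 with a filter at the 60th percentile, 181 at a 1.5-fold limit and 73 without the striatum, and 23 to 30 without each animal. The 18 below every region became 54 at a 1.5-fold limit and 48 without the hippocampus, and 18 to 20 without each animal. No probe set passed the interaction with line under the alternatives run in limma, with 289 to 2331 at an unadjusted p under 0.05 and a range of 0 to 0 calls without each animal. Without the block for the animal the main count was 234, and with a random replicate block 233; the block changed no other count by over 1.5 times. Other probe sets of the same gene gave the opposite sign for Grm8 (0.79), Slc1a2 (-0.19), Kcna2 (-0.19), Cyp26b1 (-0.047), Aqp4 (0.046), Grin2a (-0.048) and Gabrd (-0.14). Without the amygdala the sign turned for Plxnd1 (0.033), Scn4b (-0.015) and Hspb1 (0.12), and without the hippocampus for Neurod1 (0.085), Bhlhe22 (0.21), Scn4b (-0.29) and Gabra3 (-0.024). The cause was not tested, beyond the fact that these alternatives compare other regions or probes. Of the named genes, 15 no longer had an adjusted p under 0.05 in limma with all 60 arrays, each with the same sign. Signals under the filter limit have no measured background, so folds against them are less certain.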
